A study of Ovis aries with 36 samples.

Results

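The 9 genes described here encode enzymes of the citrate cycle that work in the mitochondrial matrix. They were taken by symbol, and the list was drawn up with earlier results of these data known. They are CS, IDH2, IDH3A, IDH3B, OGDH, SUCLA2, SUCLG1, FH and MDH2, which are 9 of the 22851 gene names in the count table of each tissue. Loci that carried the same symbol were added together, and all 9 genes were found and passed the filter on low counts in each of the 3 tissues.

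Read counts came from 36 RNA-seq libraries of sheep fetuses, 12 each from longissimus dorsi muscle, the subcutaneous adipose depot near the shoulder and the perirenal adipose depot around the kidney. The dams were Polypay ewes bred to 1 sire and fed from mid to late gestation, with energy intake matched. The diets were alfalfa haylage offered freely (HY, Hay in the labels), limit-fed corn (CN) or limit-fed dried corn distillers grains (DG). Per the study, crude protein intake was lowest with CN and highest with HY, and crude fat intake was highest with DG. Fetal tissues were collected at the end of this feeding, in late gestation. RNA of 26 fetuses from 15 dams was combined into 4 pools per diet and tissue, 2 of female fetuses (F1, F2) and 2 of male fetuses (M1, M2). There was no further reference diet, no genetic change and no other treatment. The study lists 1 fetus in the CN F2 pool and 2 or more, which are averaged, in each other pool. Pools of one diet can share a dam, so the error given below is the spread between pools and not between dams.

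The citrate cycle oxidizes the acetyl group of acetyl-CoA in the mitochondrial matrix, releases carbon dioxide and hands electrons to the respiratory chain. Its intermediates also leave the cycle, citrate for fatty acid and sterol synthesis and oxaloacetate and 2-oxoglutarate for amino acids, and other reactions refill it. Skeletal muscle depends on it for ATP, and in fetal sheep the perirenal depot holds brown adipocytes, which burn fuel for heat and are rich in mitochondria.

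The 36 libraries held between 6705766 and 29625146 counts each, around a median of 14406914. In muscle the CN libraries were shallower, with 13749762 to 19387181 counts against 20370147 to 29625146 for DG and 19071024 to 22831074 for HY. Levels below are CPM (counts scaled to a common library size) after scaling by the trimmed mean of M values (TMM) within a tissue. They are not corrected for gene length, so each gene was compared across samples and not with the other genes. Fold changes are log2 values with their standard error (SE). FDR is the Benjamini-Hochberg adjusted p-value of the edgeR quasi-likelihood test over all features of that tissue, and a gene was called at an FDR of 0.05 or lower.

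The tissue labels were checked with marker genes. Of 15 skeletal muscle markers, 14 were measured, and their summed level was 119442 to 180747 CPM in muscle and 20.9 to 847 CPM in perirenal fat. In subcutaneous fat, where at most 1 of the 14 was at 0 in a pool, the sum ran from 926 to 151976 CPM, and the DG F1 and HY F2 pools, at 151976 and 130164 CPM, lay within the range of the muscle libraries. All subcutaneous pools also expressed adipocyte markers, at 2101 to 11052 CPM over 6 of 8 listed genes, against 78.1 to 169 CPM in muscle. The 5 brown adipocyte markers summed to 681 to 1545 CPM in perirenal fat, 48.9 to 245 CPM in subcutaneous fat and 40.4 to 55.5 CPM in muscle. In bulk tissue, fewer cells of a type and less RNA per cell cannot be told apart.

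In fetal muscle, OGDH, IDH3B and SUCLA2 were higher with HY than with CN, and IDH3B was also higher with DG than with CN. At 3 of 9 genes in CN vs. HY and 1 of 9 in CN vs. DG, the counts compare with 2.95% and 0.976% of all 18751 features called in the same comparisons. Every called member was lower in CN, and in CN vs. HY 494 of the 553 called features were also lower in CN. In DG vs. HY none of the 9 passed, and 0% of all features did, although 412 features had an unadjusted p below 0.05. At a wider FDR of 0.20, 4 of the 9 genes passed in CN vs. HY and 2 of the 9 in CN vs. DG, beside 16% and 7.06% of all features, and none in DG vs. HY, beside 0%.

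**Figure D1:**
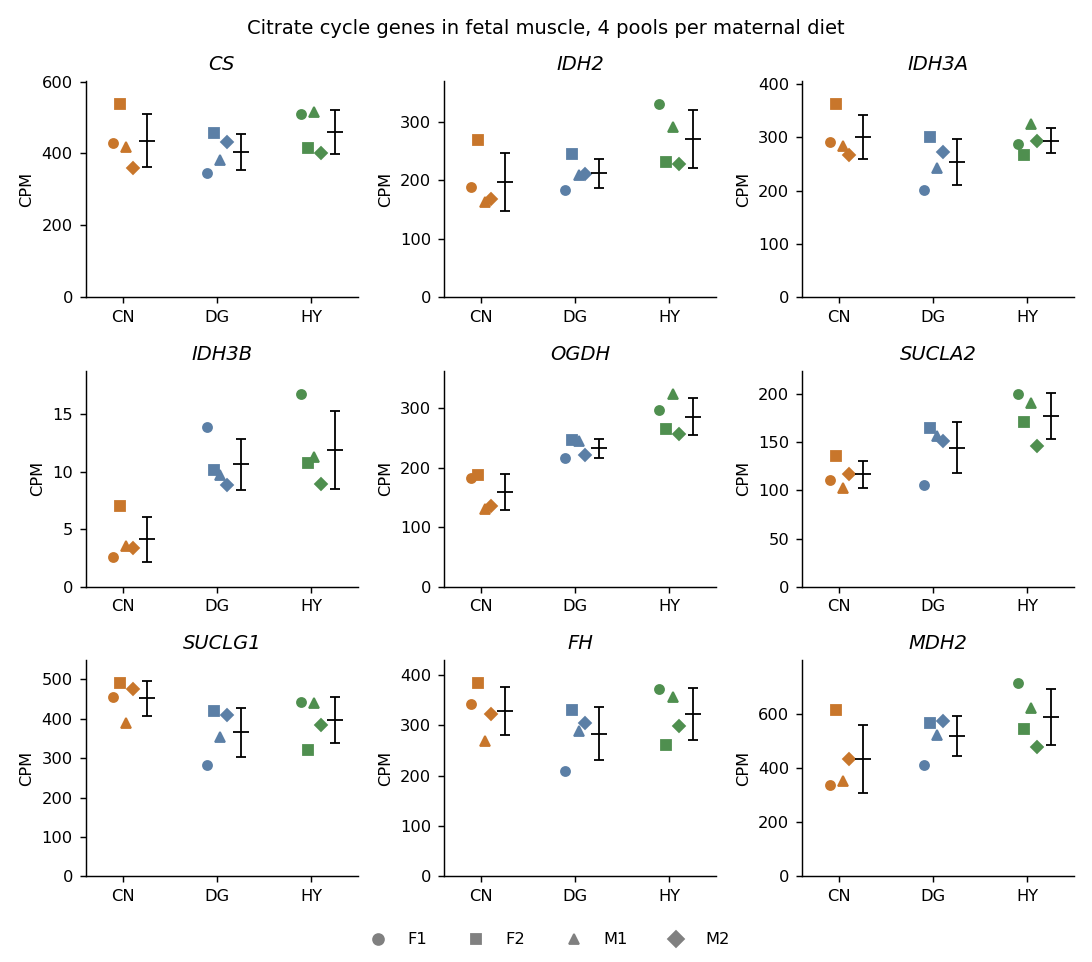
CPM of each gene (y axis, from 0) in the 4 muscle pools of each maternal diet (x axis); symbols mark the pools F1, F2, M1 and M2, and the black bar gives the mean ± SD (n = 4). OGDH in CN (131 to 188 CPM) lies below every DG and HY pool, and the same holds for IDH3B, whereas CS, IDH3A, SUCLG1 and FH overlap between diets.

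CS, citrate synthase, condenses acetyl-CoA with oxaloacetate in the first step and is widely used as a marker of mitochondrial content. In the order F1, F2, M1 and M2, its level in muscle was 429.5, 537, 417 and 359.8 CPM with CN, 345, 456, 381 and 431 CPM with DG, and 510.4, 414, 515 and 401 CPM with HY. The 3 diets overlapped, and the change was 0.08 (SE 0.15, FDR 0.802) for HY over CN and -0.11 (SE 0.15, FDR 0.742) for DG over CN. The locus lies on chromosome 3 from 162970595 to 162993304 in the assembled muscle annotation of Oar_v3.1, to which the other positions below also refer.

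IDH2 is the NADP-dependent isocitrate dehydrogenase of the matrix, which supplies NADPH as well as 2-oxoglutarate (chromosome 18, 20574050 to 20606111). Its pools measured 189, 269, 162 and 168 CPM with CN, 183, 244, 209 and 210.0 CPM with DG, and 329.7, 232, 291 and 227 CPM with HY. The CN F2 pool, of a single fetus and at 269 CPM, stood above the other 3 CN pools and inside the HY range. HY over CN was 0.45 (SE 0.17, FDR 0.160). With 1 pool at a time left out, IDH2 was called in 1 of 8 fits, without CN F2 (0.64, FDR 0.0277). The 8 fits gave 0.34 to 0.64, with FDRs of 0.0277 to 0.41. The difference between DG and CN was 0.10 (SE 0.17, FDR 0.807).

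IDH3A and IDH3B encode the catalytic alpha subunit and the beta subunit of the NAD-dependent isocitrate dehydrogenase, an irreversible and regulated step of the cycle. IDH3A measured 290.4, 362, 283 and 267 CPM with CN, 200.3, 301, 242 and 272 CPM with DG, and 288, 267, 325 and 294 CPM with HY. The IDH3A pools of the 3 diets overlapped, with log2 values of -0.03 (SE 0.14, FDR 0.911) for HY over CN and -0.24 (SE 0.14, FDR 0.400) for DG over CN. Its locus is on chromosome 18 from 29594817 to 29673026. IDH3B measured 2.62, 7.02, 3.58 and 3.38 CPM with CN, 13.9, 10.1, 9.71 and 8.82 CPM with DG, and 16.8, 10.7, 11.2 and 8.89 CPM with HY. All CN pools lay below all DG and HY pools. The log2 fold change was 1.34 (SE 0.29, FDR 0.0439) for DG over CN and 1.51 (SE 0.29, FDR 0.0206) for HY over CN.

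The IDH3B values in muscle rest on few reads, 45 to 354 per library and 2287 in all 12, against 21080 in subcutaneous and 14511 in perirenal fat. Its locus spans 51851427 to 51862220 on chromosome 13 in muscle, and the locus named for the nucleolar protein gene NOP56 shares that span. NOP56 in muscle changed by -0.37 (SE 0.11, FDR 0.124) for DG over CN and by -0.36 (SE 0.11, FDR 0.0944) for HY over CN, opposite in sign to IDH3B. The part of the locus models in the IDH3B difference was not tested. When 1 pool at a time was left out, IDH3B was called in 1 of 8 fits for DG over CN (log2 1.16 to 1.73, FDR 0.0111 to 0.142) and in 3 of 8 for HY over CN (log2 1.29 to 1.90, FDR 0.00294 to 0.0822).

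OGDH, the E1 component of the 2-oxoglutarate dehydrogenase complex, catalyses the second oxidative decarboxylation of the cycle. Its level was 182, 188, 131 and 136 CPM with CN, 216, 247, 244 and 221 CPM with DG, and 296, 265, 324 and 256 CPM with HY. The 3 groups did not overlap in any pair: CN was lowest, DG intermediate and HY highest. HY over CN was 0.84 (SE 0.14, FDR 0.0125), ranked 35 of 18751 features by p-value, and DG over CN was 0.54 (SE 0.14, FDR 0.0755). HY over DG was 0.30 (SE 0.14, FDR 0.999948), so the step between the 2 higher groups was not called. Leaving out pools in turn gave 0.75 to 0.93 for HY over CN, called in 7 of 8 fits, and without HY F1 the FDR was 0.0572. The gene lies on chromosome 4 from 76827024 to 76893624.

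SUCLA2 and SUCLG1 encode the ADP-specific beta subunit and the shared alpha subunit of succinyl-CoA ligase, the step that makes a nucleoside triphosphate directly. SUCLA2 measured 111, 135, 102 and 117 CPM with CN, 105, 164, 156 and 150.5 CPM with DG, and 199.8, 171, 191 and 146 CPM with HY. Every HY pool was above every CN pool, while the DG F1 pool lay among the CN pools. The change was 0.60 (SE 0.15, FDR 0.0470) for HY over CN and 0.31 (SE 0.15, FDR 0.319) for DG over CN. The call for HY over CN held in 2 of 8 fits with a pool left out, with FDRs of 0.0249 to 0.156 and log2 values of 0.54 to 0.68. The locus with 98.9% of the SUCLA2 counts in muscle and 2 smaller ones share the span from 18124331 to 18223278 on chromosome 10.

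SUCLG1, on chromosome 3 from 56150136 to 56186559, was not called in any diet comparison. Its pools measured 455, 489.8, 388 and 475 CPM with CN, 283, 419, 354 and 409 CPM with DG, and 442, 320.2, 441 and 384 CPM with HY, with overlap between all diets. The log2 difference was -0.19 (SE 0.15, FDR 0.508) for HY over CN and -0.30 (SE 0.15, FDR 0.325) for DG over CN. Within each library the SUCLA2 level divided by the SUCLG1 level, both in CPM, was 0.257 ± 0.0150 (SD, n = 4) with CN, 0.393 ± 0.0332 with DG and 0.450 ± 0.0640 with HY. The CN pools, at 0.244 to 0.276, lay below the DG pools, at 0.368 to 0.441, and below the HY pools, at 0.380 to 0.534. The matching quotient of IDH3B over IDH3A was 0.0134 ± 0.00432 with CN, 0.0439 ± 0.0174 with DG and 0.0408 ± 0.0123 with HY. Both quotients were computed after the diet differences were known and are given without a test.

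FH, fumarase, hydrates fumarate to malate, and MDH2, mitochondrial malate dehydrogenase, closes the cycle and takes part in the malate-aspartate shuttle. They lie on chromosome 12 from 33430096 to 33457504 and on chromosome 24 from 34133835 to 34178196. FH was 342, 382, 268 and 321 CPM with CN, 209, 331, 288 and 304 CPM with DG, and 372, 259.6, 356 and 298 CPM with HY. Its pools overlapped between all diets, with -0.03 (SE 0.16, FDR 0.930) for HY over CN and -0.22 (SE 0.16, FDR 0.534) for DG over CN. MDH2 was 336, 612, 352 and 435 CPM with CN, 410.0, 565, 522 and 575 CPM with DG, and 712, 543, 621 and 476 CPM with HY. The CN F2 pool was the highest CN pool for MDH2, at 612 CPM, as it was for every other member in muscle. As for IDH2, it lay inside the HY range. MDH2 differed by 0.44 (SE 0.19, FDR 0.221) for HY over CN and by 0.26 (SE 0.19, FDR 0.534) for DG over CN. With 1 pool at a time left out, MDH2 was called for HY over CN in 1 of 8 fits, without CN F2 (0.65, FDR 0.0412). The 8 fits gave 0.33 to 0.65, with FDRs of 0.0412 to 0.483.

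Counted over the 9 genes, 6 had a positive log2 value for HY over CN, with a median of 0.44 beside -0.02 for all tested features, and 5 had one for DG over CN, with a median of 0.10 beside -0.0034. All 9 were positive for HY over DG, with a median of 0.19 beside -0.01, and none was called. The pools of the 2 diets did not overlap for 3 genes in CN vs. HY, 2 in CN vs. DG and 1 in DG vs. HY, where 12.6%, 8.72% and 1.82% of all features did not overlap. The 3 comparisons share groups of pools, so they are not separate evidence. Summed muscle marker levels overlapped between the diets, at 141734 to 155829 CPM with CN, 119442 to 180747 CPM with DG and 128680 to 169026 CPM with HY. Of the other marker lists, the 3 adrenal cortex genes summed to 15.9 to 20.2 CPM with CN and 13.4 to 15.7 CPM with HY, without overlap. In every muscle pool 1 or 2 of these 3 genes were at 0. For the endothelial list, 3 of 4 genes summed to 325 to 417 CPM with CN and 408 to 491 CPM with HY. The part of these lists in the HY over CN differences was not tested. Library depth did not overlap between CN and DG. With all muscle libraries thinned to the depth of the shallowest, OGDH kept 0.85 (FDR 0.0128), IDH3B 1.57 (FDR 0.0181) and SUCLA2 0.59 (FDR 0.0477) for HY over CN, and IDH3B had 1.304 (FDR 0.0553) for DG over CN.

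The rest of the cycle and its surroundings were read from lists of related genes. Of 8 other cycle enzymes tested in muscle, 7 had positive values for HY over CN, with a median of 0.43. DLST, the E2 partner of OGDH, differed by 0.48 (SE 0.13, FDR 0.0585). In DG over CN none of the 8 was called. Neither comparison called any of 8 genes of the pyruvate dehydrogenase complex and its regulators, which admit pyruvate carbon to the cycle. PDK4, a kinase that inactivates this complex, differed by 0.63 (SE 0.30, FDR 0.257) for HY over CN and 0.38 (SE 0.30, FDR 0.555) for DG over CN.

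No gene was called among 11 cytosolic counterparts and mitochondrial carriers, where SLC25A1, the citrate carrier, had 0.49 (SE 0.20, FDR 0.194) for HY over CN. Nor was any called among 6 genes of pyruvate, malate and glutamate entry, where PC, pyruvate carboxylase, which makes oxaloacetate, had 0.44 (SE 0.16, FDR 0.148). Among 6 regulators of mitochondrial genes, GABPA, the DNA-binding subunit of nuclear respiratory factor 2, was called at 1.04 (SE 0.26, FDR 0.0480) for HY over CN. The coactivator PPARGC1A, at -0.08 (SE 0.12, FDR 0.737), and the nuclear receptor ESRRA, at -0.18 (SE 0.14, FDR 0.499), had small negative values. None of these 5 lists had a called gene in DG vs. HY.

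**Figure D2:**
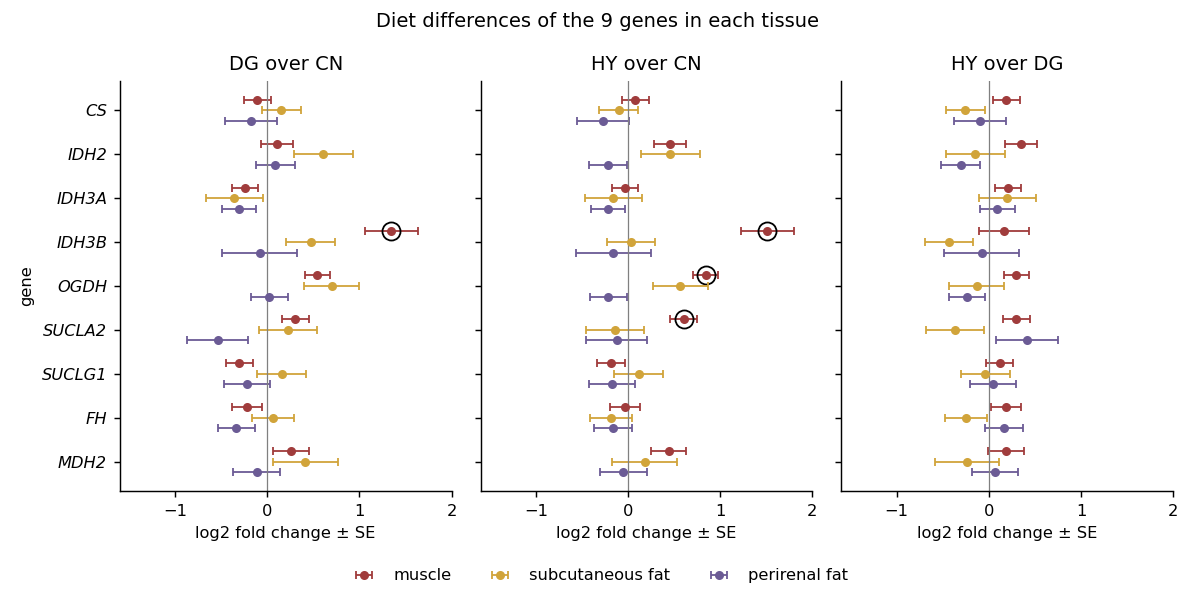
Log2 fold change ± SE of each gene (y axis) for DG over CN, HY over CN and HY over DG in the 3 tissues; open black circles mark an FDR of 0.05 or lower. The circled points are IDH3B in DG over CN and IDH3B, OGDH and SUCLA2 in HY over CN, all in muscle, and in perirenal fat all 9 values for HY over CN lie below 0.

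In subcutaneous fat none of the 9 genes was called in any diet comparison, beside 0% of all 18198 features at an FDR of 0.05 in CN vs. DG, 0% in CN vs. HY and 0% in DG vs. HY. At an FDR of 0.20 none passed either, beside 0% in CN vs. DG, 0% in CN vs. HY and 11.1% in DG vs. HY. Of the 9, 8 had positive values for DG over CN, with a median of 0.22, 5 for HY over CN, with a median of 0.03, and 1 for HY over DG, with a median of -0.23. Scaled by library totals alone, which moved the median of all features to -0.13 for DG over CN and 0.15 for HY over DG, these counts of positive members were 6 and 4. With the summed muscle marker level as a covariate 5 of the 9 were positive for HY over DG, since IDH2 (0.18), OGDH (0.13), SUCLG1 (0.09) and MDH2 (0.01) changed sign, none of them called. No gene had diets that did not overlap, beside 6.85% of all features in CN vs. DG, 2.86% in CN vs. HY and 9.24% in DG vs. HY.

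OGDH gave the smallest FDR of the 9 in this depot for DG over CN. It measured 112, 50.9, 61.7 and 60.3 CPM with CN, 131, 134, 57.7 and 140.2 CPM with DG, and 93.3, 130.04, 92.3 and 106 CPM with HY. The DG M1 pool stood with the low CN pools, and the CN F1 pool stood with the higher HY pools. DG over CN was 0.70 (SE 0.30, FDR 0.315) and HY over CN was 0.57 (SE 0.30, FDR 0.929). IDH2 was 142, 127, 96.9 and 93.0 CPM with CN, 235, 165, 81.2 and 219 CPM with DG, and 164, 231, 102 and 133 CPM with HY. Its DG pools reached both above and below all CN pools, and DG over CN was 0.61 (SE 0.32, FDR 0.376).

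The remaining genes varied widely between subcutaneous pools of one diet. IDH3B ran from 83.2 to 188 CPM, SUCLA2 from 82.9 to 264 CPM, IDH3A from 138 to 375 CPM, MDH2 from 181 to 512 CPM and SUCLG1 from 219 to 441 CPM over the 12 pools. CS, at 222 to 425 CPM, and FH, at 159 to 299 CPM, had the narrowest spread in ratio of highest to lowest pool, 1.91 and 1.88.

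Each gene was set against the muscle marker level of the subcutaneous pools. After adjustment IDH3B passed 0.05 by Pearson's r and not by Spearman's rho, and no other gene passed by either. Pearson's r between the log2 gene level and the log2 summed marker level over the 12 pools was 0.77 for IDH3B (Spearman's rho 0.75; permutation p = 0.00464 and 0.00703, adjusted 0.0418 and 0.0574). It was 0.71 for IDH2 (rho 0.73; permutation p = 0.0127 and 0.00957, adjusted 0.0762 and 0.0574) and 0.59 for MDH2 (rho 0.66; permutation p = 0.0444 and 0.0239, adjusted 0.1998 and 0.103). Adjustment was over 18 correlations, 9 in each adipose depot, and every test was two-sided. Without the HY F1 and DG M1 pools, the farthest from the median marker level, r was 0.85 for IDH3B, 0.89 for IDH2 and 0.86 for MDH2. Centred within diet, the values were 0.78, 0.80 and 0.58. Scaled over all libraries, IDH3B itself was 2.92 to 18.2 CPM in muscle against 84.4 to 184 CPM in subcutaneous fat. The part of muscle RNA in the IDH3B correlation was not tested.

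For CS, IDH3A and SUCLA2 r was 0.24, -0.08 and 0.14, with permutation p of 0.452, 0.796 and 0.656. OGDH, SUCLG1 and FH lay between, at 0.52, 0.49 and 0.51, none of them below 0.05 by permutation. For SUCLG1 r was 0.88 without the HY F1 and DG M1 pools. With the marker level as a covariate in the diet fit, OGDH differed by 0.53 (SE 0.24, FDR 0.247) for DG over CN and IDH2 by 0.41 (SE 0.22, FDR 0.332), and no member was called. Without the DG F1 and HY F2 pools these values were 0.63 (FDR 0.452) and 0.44 (FDR 0.561).

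**Figure D3:**
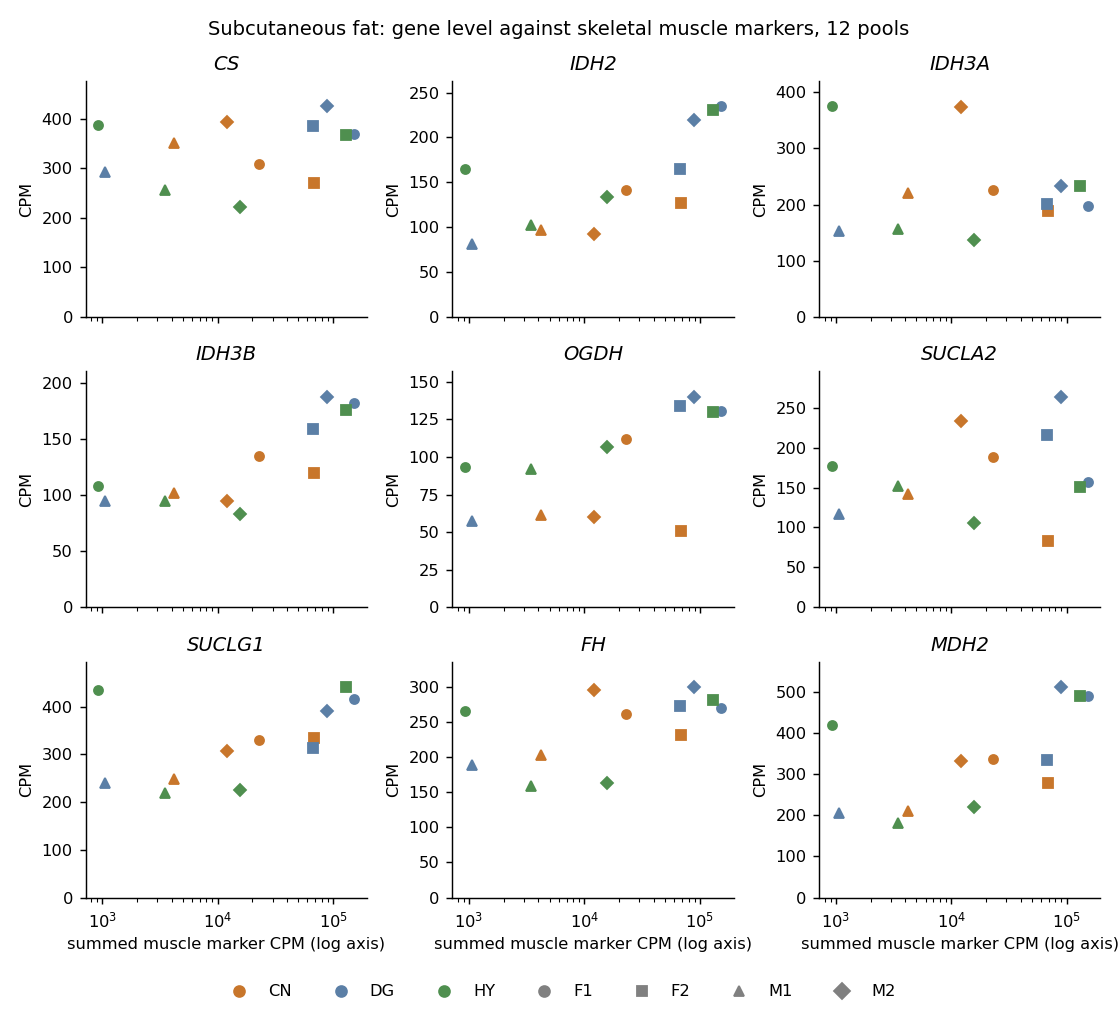
CPM of each gene (y axis, from 0) against the summed CPM of the skeletal muscle markers (x axis, log scale) in the 12 subcutaneous pools; colours mark diets and symbols mark pools. IDH2 and IDH3B are highest in DG F1, DG M2 and HY F2, the 3 pools with the highest marker sums, whereas IDH3A and SUCLA2 show no such order.

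Of the other lists in subcutaneous fat, none had a called gene in any diet comparison. SUCLG2, the GDP-specific beta subunit that shares the alpha subunit SUCLG1 with SUCLA2, differed by -0.73 (SE 0.22, FDR 0.141) for HY over DG and by 0.61 (SE 0.22, FDR 0.274) for DG over CN. PC differed by 1.45 (SE 0.52, FDR 0.186) for HY over DG, and ACLY, which cleaves exported citrate for lipid synthesis, by -1.26 (SE 0.43, FDR 0.271) for DG over CN. For DG over CN, PDK4 had 0.41 (SE 0.25, FDR 0.421), PPARGC1A -0.05 (SE 0.32, FDR 0.941) and ESRRA 0.07 (SE 0.27, FDR 0.900).

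In perirenal fat no diet comparison called any of the 9 genes, and of all 18389 features 0% passed in CN vs. DG, 0% in CN vs. HY and 0% in DG vs. HY. At an FDR of 0.20 these shares were 1.68%, 0% and 0%, again with no member. All 9 values were negative for HY over CN, with a median of -0.17 beside 0.01 over all features, and 7 of 9 were negative for DG over CN. HY over CN ran from -0.28 (SE 0.28) for CS to -0.05 (SE 0.25) for MDH2, with FDRs of 0.999. No gene had diets that did not overlap, beside 6.6% of all features in CN vs. DG, 1.6% in CN vs. HY and 5.73% in DG vs. HY.

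OGDH in perirenal fat measured 159, 126, 165 and 121 CPM with CN, 115, 207, 112 and 147 CPM with DG, and 108, 104, 127 and 153 CPM with HY. The diets overlapped, with 0.02 (SE 0.20, FDR 0.983) for DG over CN and -0.21 (SE 0.20, FDR 0.999) for HY over CN. SUCLA2 measured 216, 90.1, 281 and 289 CPM with CN, 108, 190.0, 115 and 190.0 CPM with DG, and 246, 126, 204 and 228 CPM with HY. Its CN F2 pool was the lowest of all 12, and DG over CN was -0.54 (SE 0.33, FDR 0.654). IDH3B ran from 52.2 to 205 CPM and gave -0.08 (SE 0.41, FDR 0.971) for DG over CN and -0.16 (SE 0.41, FDR 0.999) for HY over CN.

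**Figure D4:**
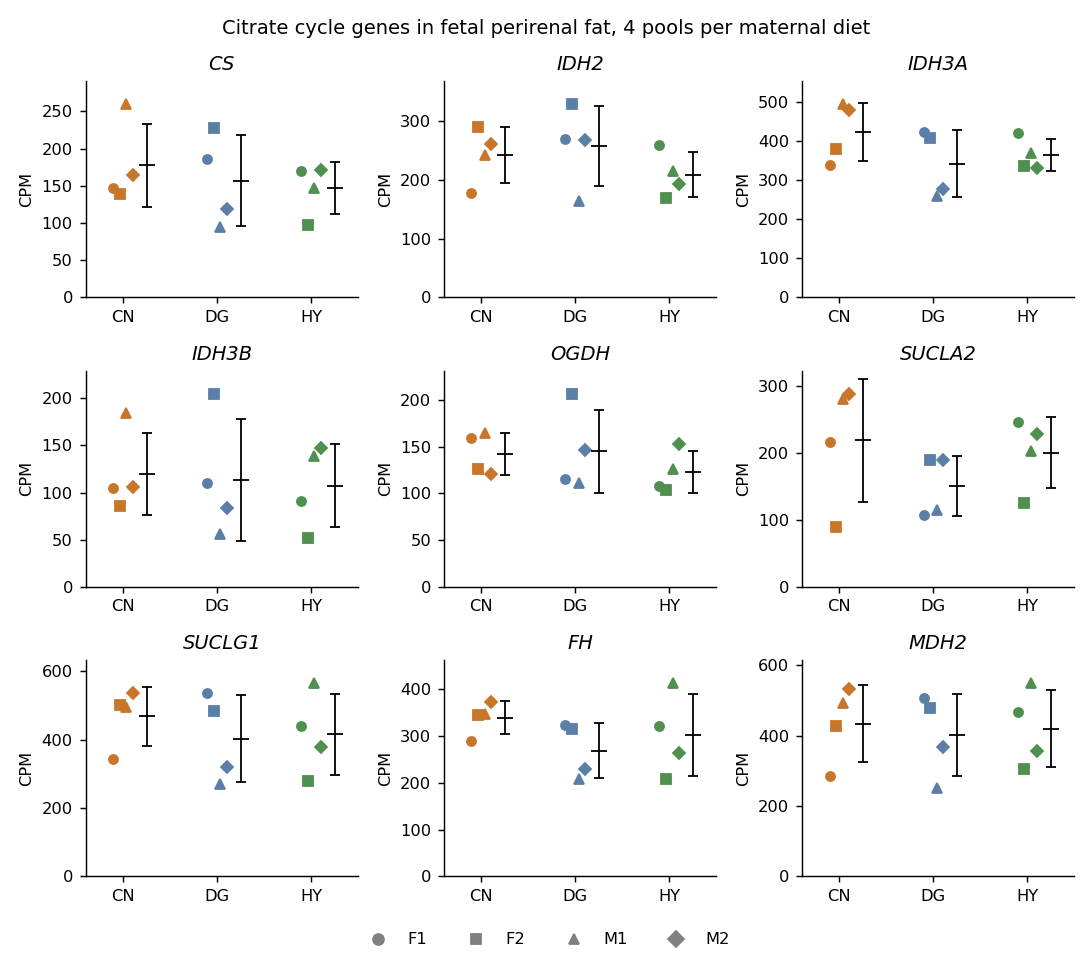
CPM of each gene (y axis, from 0) in the 4 perirenal pools of each maternal diet (x axis), with symbols for the pools and the mean ± SD as a black bar (n = 4). The diets overlap for all 9 genes, and SUCLA2 ranges from 90.1 CPM in CN F2 to 289 CPM in CN M2 within a single diet.

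The other perirenal genes ranged over the 12 pools from 94.6 to 259.8 CPM for CS, 164 to 329 CPM for IDH2, 259 to 495 CPM for IDH3A, 272 to 565 CPM for SUCLG1, 208 to 411 CPM for FH and 251 to 549 CPM for MDH2. DG M1 was the lowest pool for 5 of these 6, and HY F2 for FH. The level of brown adipocyte markers was related to IDH2, with r = 0.77 and rho = 0.76 (permutation p = 0.00318 and 0.00648, adjusted 0.0418 and 0.0574, n = 12 pools), 0.78 without the 2 farthest pools, DG F2 and HY M1, and 0.75 within diet. For the other 8 genes r ran from 0.07 for SUCLA2 to 0.55 for OGDH, with permutation p of 0.0652 or more, and for IDH3A rho was 0.64 (permutation p = 0.0285, adjusted 0.103). Without the same 2 pools r was 0.72 for MDH2, 0.66 for SUCLG1 and 0.63 for FH, against 0.39, 0.34 and 0.21 with them. The marker sum was 872 to 1144 CPM with CN, 746 to 1545 CPM with DG and 681 to 873 CPM with HY. Its part in the diet values was not tested.

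None of the 5 other lists had a called gene in perirenal fat. PDK4 differed by 0.31 (SE 0.20, FDR 0.668) for DG over CN and 0.41 (SE 0.20, FDR 0.999) for HY over CN. PPARGC1A had -0.14 (SE 0.39, FDR 0.944) for DG over CN, and ESRRA 0.05 (SE 0.13, FDR 0.943). Of the cytosolic genes, ACO1, which also acts as an iron regulatory protein, had -0.62 (SE 0.27, FDR 0.466) for DG over CN.

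More of the 9 genes were called between tissues than between diets. The same held for all features, with 68.8% to 81.3% called between tissues and 0% to 2.95% between diets. The tissue levels were scaled over all 36 libraries, and each pool served as its own control because its 3 libraries came from the same fetuses. Of the 9 genes, 7 were lower in subcutaneous fat than in muscle and IDH3B was higher, 8 calls in all, where 73.8% of the 13901 names compared were called. From muscle to perirenal fat 5 of 9 were called, beside 81.3% of all names, and from subcutaneous to perirenal fat 4 of 9, beside 68.8%.

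**Figure D5:**
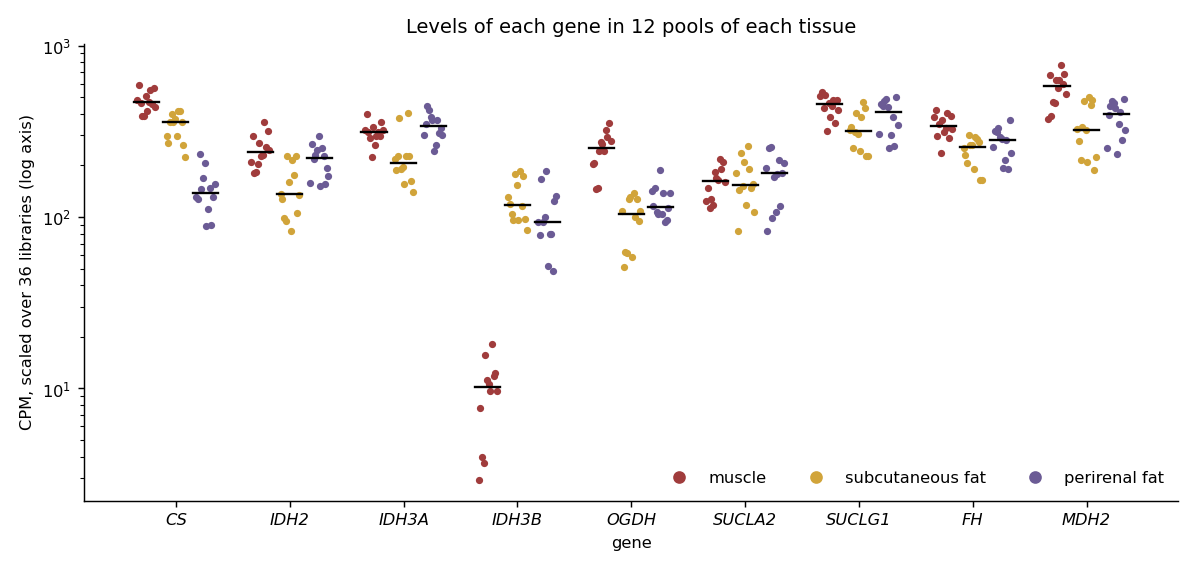
CPM scaled over the 36 libraries (y axis, log scale) of each gene (x axis) in the 12 pools of each tissue; horizontal bars are medians. CS falls from a median of 467 CPM in muscle to 138 CPM in perirenal fat, OGDH is highest in muscle, and IDH3B in muscle (2.92 to 18.2 CPM) lies far below both adipose depots.

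CS was 477 ± 66.6 CPM (SD, n = 12) in muscle, 337 ± 64.0 CPM in subcutaneous fat and 145 ± 43.2 CPM in perirenal fat. Lowest, median and highest pool were 388, 467 and 590.2 CPM in muscle, 225, 359 and 417 CPM in subcutaneous fat, and 88.1, 138 and 234 CPM in perirenal fat. All neighbours in this order were called, at -0.51 (SE 0.13, FDR 0.00119) from muscle to subcutaneous fat and -1.24 (SE 0.13, FDR 2.3e-08) from subcutaneous to perirenal fat. The perirenal annotation split CS into 3 loci, of which the largest held 92.7% of the counts, while each other tissue had 1 locus. The part of that split in the tissue difference was not tested.

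OGDH was 248 ± 64.3 CPM in muscle (145 to 355 CPM), 124 ± 27.4 CPM in perirenal fat (94.2 to 187 CPM) and 97.3 ± 31.4 CPM in subcutaneous fat (50.8 to 137 CPM). It was lower than in muscle by a log2 value of -1.37 (SE 0.12, FDR 7.3e-10) in subcutaneous and -0.99 (SE 0.12, FDR 9.0e-08) in perirenal fat, and higher in perirenal than in subcutaneous fat by 0.39 (SE 0.12, FDR 0.0064). MDH2 was 564 ± 123 CPM in muscle, 378 ± 88.7 CPM in perirenal fat and 334 ± 117 CPM in subcutaneous fat. Muscle exceeded both depots, with -0.79 (SE 0.16, FDR 0.000133) for subcutaneous and -0.58 (SE 0.16, FDR 0.00204) for perirenal fat, and the depots were not separated.

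FH followed the same order, with 342 ± 54.1 CPM in muscle, 273 ± 55.3 CPM in perirenal fat and 241 ± 48.4 CPM in subcutaneous fat, and with calls of -0.51 (SE 0.12, FDR 0.000492) and -0.33 (SE 0.12, FDR 0.0128) relative to muscle. SUCLG1 was 446 ± 67.0 CPM in muscle, 388 ± 92.3 CPM in perirenal fat and 326 ± 81.8 CPM in subcutaneous fat, and only the step from muscle to subcutaneous fat was called, at -0.46 (SE 0.14, FDR 0.00416). SUCLA2 was not separated between tissues, at 160.3 ± 35.1, 166 ± 52.4 and 172 ± 58.6 CPM in muscle, subcutaneous and perirenal fat, and its 3 log2 differences ran from -0.01 to 0.04 (SE 0.14 to 0.15).

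Of the 3 isocitrate dehydrogenase genes, IDH2 and IDH3A were called between the 2 adipose depots and IDH3B was not. IDH2 was 249 ± 54.8 CPM in muscle, 215 ± 48.1 CPM in perirenal fat and 149 ± 52.2 CPM in subcutaneous fat, and perirenal exceeded subcutaneous fat by 0.56 (SE 0.13, FDR 0.000711). IDH3A was 311 ± 43.6 CPM in muscle, 340.4 ± 61.8 CPM in perirenal fat and 226 ± 82.7 CPM in subcutaneous fat, with 0.63 (SE 0.13, FDR 0.000244) between the depots. Subcutaneous fat was the lowest for both, and neither was called between muscle and perirenal fat, where IDH2 had -0.22 (SE 0.13, FDR 0.122). DESeq2, at -0.29 (FDR 0.04996), and a fit of these 2 tissues alone, at -0.24 (FDR 0.0246), did call IDH2 there.

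IDH3B stood apart from its partner IDH3A, at 9.79 ± 4.68 CPM in muscle (2.92 to 18.2 CPM) against 128 ± 35.5 CPM in subcutaneous fat (84.4 to 184 CPM) and 103 ± 42.2 CPM in perirenal fat (48.2 to 186 CPM). The differences from muscle were 3.84 (SE 0.22) and 3.50 (SE 0.22), and from subcutaneous to perirenal fat -0.34 (SE 0.20, FDR 0.135). NOP56, which shares the IDH3B span, was 142 ± 23.2 CPM in muscle, 186 ± 46.7 CPM in subcutaneous fat and 257 ± 45.6 CPM in perirenal fat. The 2 subcutaneous pools with marker sums in the range of muscle, DG F1 and HY F2, had IDH3B levels within that subcutaneous range and far above every muscle library. Locus models differed between the count tables of the 3 tissues, and their part in the IDH3B difference was not tested.

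With scaling by library totals alone, the median of all names shifted to 0.12 from muscle to subcutaneous fat, 0.32 from muscle to perirenal fat and 0.19 from subcutaneous to perirenal fat. Under it FH and MDH2 lost their calls between muscle and perirenal fat, at -0.04 (FDR 0.702) and -0.29 (FDR 0.0664). IDH3A gained one there, at 0.40 (FDR 0.00816), while IDH2 and SUCLG1, not called, changed sign. From subcutaneous to perirenal fat SUCLG1, FH and MDH2 gained calls, at 0.40, 0.33 and 0.36. Without the DG F1 and HY F2 subcutaneous libraries, the 8 calls between muscle and subcutaneous fat remained, with IDH2 at -0.94 (SE 0.12) and IDH3B at 3.68 (SE 0.22), and SUCLG1 was called between the depots, at 0.35 (FDR 0.0256).

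Whether the diet response differed between tissues was tested as an interaction. No member was called between any pair of tissues, where 0.00719% of names in CN vs. DG and 0% in both CN vs. HY and DG vs. HY were called between muscle and subcutaneous fat. Between muscle and perirenal fat the shares were 0%, 0% and 0%, and between the 2 depots they were 0.0216%, 0% and 7.19%. The HY over CN response of OGDH was lower in perirenal fat than in muscle by a log2 value of -1.06 (SE 0.29, FDR 0.591), ranked 32 of 13901 names. That of IDH3B was lower by -1.67 (SE 0.51, FDR 0.621), and between muscle and subcutaneous fat by -1.46 (SE 0.51, FDR 0.607). The calls in muscle are therefore not shown to be particular to muscle.

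The sexes were compared in fits that included diet. No member was called in muscle, subcutaneous fat or perirenal fat, beside 0%, 0% and 0.0272% of all features. In subcutaneous fat 8 of the 9 values were negative, lower in males, with the largest for IDH2 at -0.55 (SE 0.22, FDR 0.311) and MDH2 at -0.51 (SE 0.26, FDR 0.354). SUCLG1 had -0.48 (SE 0.18, FDR 0.294). The summed muscle markers in this depot were 22810, 68604, 151976, 67344, 926 and 130164 CPM in the female pools and 4201, 12110, 1061, 89427, 3470 and 15597 CPM in the male pools, and their part in the sex values was not tested.

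The 9 genes varied together across pools. Over the 36 pairs of members, the median Pearson's r of log2 CPM over the 12 pools was 0.61 in muscle, 0.63 in subcutaneous fat and 0.60 in perirenal fat, and 0.74, 0.72 and 0.64 after centring within diet. SUCLG1 and FH were among the closest pairs, with r of 0.92 in muscle and 0.95 in perirenal fat. IDH3B and SUCLG1 in muscle had the lowest r, -0.43, and 0.04 within diet. These correlations share libraries and depth and are given as a description.

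Outside the 9, the genes whose level followed the mean of the members most closely were, in muscle, MRPL37 and MRPS18B, which encode mitochondrial ribosomal proteins, SDHA, the flavoprotein subunit of succinate dehydrogenase, LRP11 and GHITM, with r of 0.94 to 0.97 over the 12 pools and a median of 0.06 over 7953 candidate genes. In subcutaneous fat they were ATP5B, the beta subunit of ATP synthase, FDFT1, PCCB, CHCHD3 and TCAIM, with r of 0.91 to 0.95 and a median of 0.04 over 7974 genes. In perirenal fat they were ATP5A1, the alpha subunit of ATP synthase, PPA2, AIFM1, RTN4 and ADK, with r of 0.95 to 0.96 and a median of -0.03 over 8121 genes.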

How the data were processed

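RNA-seq of 36 pooled libraries was analysed. Per the labels and the methods of the study, the authors aligned reads to Oar_v3.1 with TopHat2 2.0.4, assembled transcripts with Cufflinks 2.1.1, merged them with the reference annotation, and deposited 1 table of raw read counts per library. The deposited table of muscle holds 34958 loci, that of subcutaneous fat 34246 and that of perirenal fat 35060, so locus models differ between tissues. HTSeq is named in the submitters' processing notes. Its settings on strand and overlapping genes are not given in the sources used here, so reads of overlapping loci may be shared or lost. The study compared diets with Cuffdiff, which needs alignments, so the counts were tested here instead.

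Counts of loci with the same name were summed, a locus with several names counting for each. Features were filtered with filterByExpr (minimum count 10, minimum total 15), scaled by TMM and fitted with edgeR 4.0.16 (robust quasi-likelihood F test) in R 4.3.3, over the 12 pools of a tissue with 3 diets, or over the 36 libraries with pool as a term. Each SE was derived from the F statistic as the absolute log2 value over its root. P-values were adjusted by Benjamini-Hochberg over all features. Alternatives included DESeq2 1.42.0. Permutation tests used 100000 permutations in Python 3.11.15. The smallest chi-square per degree of freedom between pools of one group was 14.5, above sampling noise, so no library was counted as a duplicate. The 9 genes, the lists and the named genes (all members, called list genes, otherwise up to 2 per list with the smallest FDR, PDK4, PPARGC1A and ESRRA, and the 5 most similar genes of at least 10 mean CPM) were chosen with earlier results of these data known. The values of 1 gene of the lists, and the count of calls among the other cycle enzymes in muscle CN vs. HY, are not reported here. The thinning, the library-total scaling, the removal of the DG F1 and HY F2 subcutaneous libraries, the subunit quotients and the marker correlations were added after seeing the data.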

Additional observations from a re-analysis of the deposited data

Results flagged for a closer look

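OGDH in the DG M1 pool of subcutaneous fat, at 57.7 CPM, lay far from the other 3 DG pools, which ran from 131 to 140.2 CPM; the gap was 0.884 of the range of the group. This was the single such case among 81 groups of 4 pools examined, where chance flags about 1 in 20. The DG M1 pool also had the second lowest muscle marker sum of the 12 subcutaneous pools, 1061 CPM, against 67344 to 151976 CPM in the other DG pools; the part of that level in the OGDH value was not tested.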

How the results depend on the processing

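Of the counts of called members under the alternatives, 421 stayed within 1.5 times the count reported, 18 were lower and 9 higher. The 421 include counts that were 0 and stayed 0, where no call could be lost. In muscle CN vs. DG, the 1 call at an FDR of 0.05 became 0 with library totals only, with the replicate block, with the compared diets only and with the counts thinned to one depth, and 2 with DESeq2; it ranged from 0 to 2 with pools left out in turn. Among the latter it was kept only without CN F2, where OGDH joined it. The 2 members at an FDR of 0.20 ranged from 1 to 3. In CN vs. HY the 3 calls ranged from 0 (without HY F1) to 5 (without CN F2, where IDH2 and MDH2 joined). The call of SUCLA2 in CN vs. HY was lost with no filter on low counts (FDR 0.0583) and with the replicate block (FDR 0.0762). In subcutaneous fat at an FDR of 0.20, leaving out pools gave 0 to 3 members in CN vs. DG (3 without DG M1, 1 without CN F1), 0 to 1 in CN vs. HY (1 without CN F1) and 0 to 1 in DG vs. HY (1 without DG M1 or HY F2). Between subcutaneous and perirenal fat the 4 calls became 7 with library totals only. With all libraries of 1 pool left out, IDH3B was called between the depots without DG F2 (FDR 0.0441) or HY M2 (FDR 0.0491), and SUCLG1 without HY F2 (FDR 0.0313), as was SUCLG1 between muscle and perirenal fat without DG F1 (FDR 0.0405). The cause of these changes was not tested. Same-numbered pools share sex. Their deviations from the diet means had r of -0.38 to 0.21 (muscle), -0.44 to 0.67 (subcutaneous fat) and -0.06 to 0.28 (perirenal fat), with medians of -0.06, 0.23 and 0.06 against 0.03, -0.17 and -0.03 for other numbers, and 8, 9 and 9 of 12 pools correlated best with one of their own number. In each tissue 12 pairs of pools from different diets shared a number and 36 did not. Not every same-numbered pair correlated, and the main fits did not use the numbers as pairing. Whether the numbers mark a shared factor was not tested. Of 1800 member values under the alternatives, 90 differed in sign from the value reported, none of them a called value. Muscle IDH3B, with 45 to 354 counts per library, is the member most limited by depth.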
